A study of Mus musculus with 12 samples.

Results

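Ptgs2, Hpgds and Alox5ap code for 3 proteins of the pathways that turn arachidonic acid into lipid signals, and they were read here as 3 of the 754 genes of 1 panel measured in mouse cells that were flow-sorted as HSCs from the marrow of the femur. They were picked by name, and the pick was made after the levels and contrasts of these data were known, so their levels and differences are given as a description with no test. Arachidonic acid is released from membranes and enters either the cyclooxygenase branch, which makes prostaglandins, or the lipoxygenase branch, which makes leukotrienes. Ptgs2 encodes cyclooxygenase-2, the inducible enzyme that makes prostaglandin H2. Hpgds encodes haematopoietic prostaglandin D synthase, which turns prostaglandin H2 into prostaglandin D2 and is known from mast cells, macrophages and some T cells. Alox5ap encodes the 5-lipoxygenase activating protein, a membrane protein that presents arachidonic acid to 5-lipoxygenase and is abundant in neutrophils and other myeloid cells.

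The libraries came from male mice of 2 genotypes, Wild type (C57/BL6) and Adrb3-/- mice, which lack the beta-3 adrenergic receptor, and from 2 surgeries, sham and ICH, a term that the labels do not spell out. All cells were collected on day 3 after surgery and sorted straight into Trizol LS for total RNA. The 12 libraries formed 4 groups of 3, and with 6 mice per genotype in the design text, 1 library appears to stand for 1 mouse, although the labels do not say so. The question named by the series is what beta-3 adrenergic innervation does in bone marrow cells. The labels name no Cre line or other means to limit the deletion to some cells, so cells other than the sorted ones may lack the receptor too.

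Wild type sham replicate 1 is shown apart because its reaction failed: it held 24775 counts, and its positive control probe A read 79 counts, against 6278 to 44207 in the other 11 libraries. The 11 libraries held 110740 to 556407 counts, and Wild type sham was thus a group of 2. A deposited value is a whole count multiplied by 1 factor per library, and a count under 20 is given as the value 20, so a value of 20 means a level under what 20 counts are worth in that library, 23.0 to 103 in the 11 libraries. Adrb3-/- ICH replicate 2 had 243 genes under 20 counts, and Adrb3-/- ICH replicate 1 had 104 and the 6278 counts of the control probe, while the other 10 libraries read at least 23094. Of 13 stem and progenitor markers, 6 were on the panel, and each of the 6 reached 20 counts in at least 1 library of every group. Their summed level was 1196 to 4464. The 11 neutrophil markers on the panel summed to 95091 to 550763, mostly from S100a8 and S100a9, and the 14 macrophage markers to 1850 to 16478. RNA of genes known from mature myeloid cells was thus present in every library sorted as HSCs. In such bulk libraries, fewer cells of a type and less RNA per cell cannot be told apart.

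The sequences just upstream of Ptgs2, of Hpgds and of Cxcl2 are shown because Cxcl2, a neutrophil-attracting chemokine gene, had the level most like that of Ptgs2 across libraries, while Hpgds varied apart from both. They are RefSeq promoters of build GRCm38.p6, from 250 bases before the annotated start to 30 bases after it, and 2 of the 3 genes described matched the promoter table. Ptgs2 lies on the plus strand (chr1:150099781-150100060), Cxcl2 on the plus strand (chr5:90903649-90903928) and Hpgds on the minus strand (chr6:65144701-65144980). Capitals mark matches to motifs searched on both strands: the NF-kB motif GGGNNTTTCC, the C/EBP motif TTNNGNAA, the cAMP response element core TGACG, the E-box CACGTG and the PU.1 motif GAGGAAGT.
Ptgs2 promoter: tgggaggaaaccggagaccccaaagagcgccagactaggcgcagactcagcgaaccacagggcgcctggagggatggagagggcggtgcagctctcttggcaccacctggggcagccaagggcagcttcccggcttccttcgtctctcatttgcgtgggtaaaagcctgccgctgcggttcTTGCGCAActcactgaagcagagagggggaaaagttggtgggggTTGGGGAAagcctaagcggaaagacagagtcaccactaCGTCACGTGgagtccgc
Cxcl2 promoter: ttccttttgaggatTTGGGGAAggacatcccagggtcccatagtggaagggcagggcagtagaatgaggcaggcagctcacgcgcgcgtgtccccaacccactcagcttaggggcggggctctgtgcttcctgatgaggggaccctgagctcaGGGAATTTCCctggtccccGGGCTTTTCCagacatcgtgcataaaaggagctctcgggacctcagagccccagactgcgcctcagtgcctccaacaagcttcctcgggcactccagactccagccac
Hpgds promoter: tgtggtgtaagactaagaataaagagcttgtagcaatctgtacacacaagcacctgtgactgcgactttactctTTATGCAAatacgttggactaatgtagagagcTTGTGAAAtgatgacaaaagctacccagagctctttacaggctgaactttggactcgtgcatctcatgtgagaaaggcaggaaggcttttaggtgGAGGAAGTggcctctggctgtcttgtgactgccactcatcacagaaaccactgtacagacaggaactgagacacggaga
The Ptgs2 window held C/EBP matches at -69 and -25, and a cAMP response element core, CGTCA on this strand, at 14, which overlaps an E-box that begins at 17. The Cxcl2 window held NF-kB matches at -97 and -78 and a C/EBP match at -236. The Hpgds window held C/EBP matches at -176 and -144 and a PU.1 match at -49. Over 32851 promoter windows of the same length, the NF-kB motif matched in 1.54%, the C/EBP motif in 39.3%, the cAMP response element core in 19.9%, the E-box in 6.79% and the PU.1 motif in 2.82%. The motifs were picked after these sequences were read, and a match is a stretch of letters, not a measured binding site.

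Ptgs2 varied widely between libraries of the same group, other than in Wild type ICH. Its deposited value was 115.76 and 457.78 in Wild type sham replicates 2 and 3, and 93.76, 88.69 and 85.89 in the 3 Wild type ICH libraries. In Adrb3-/- sham it was 340.11, 223.61 and 51.91, and in Adrb3-/- ICH it was 94.01, 252.93 and 135.53. Wild type ICH was tight and low, while each of the other groups held at least 1 library above 200 and 1 library below 140. The group means were 287 ± 242 (SD, n = 2) in Wild type sham, 205 ± 145 (SD, n = 3) in Adrb3-/- sham, 161 ± 82.4 (SD, n = 3) in Adrb3-/- ICH and 89.4 ± 3.99 (SD, n = 3) in Wild type ICH. Each step between neighbours in this order was smaller than the larger SD of the pair. The highest library was 8.82-fold above the lowest, and the SD over the 11 libraries, 0.97 on the log2 scale, exceeded that of 95.8% of the 674 genes kept for the fit, whose median SD was 0.46.

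The counts behind Ptgs2 were 45 to 335. In 10 of 11 libraries they lay above the mean plus 2 SD of the library's own 8 negative control probes. The exception was Adrb3-/- ICH replicate 1, where 49 counts stood against a limit of 64.4. Ptgs2 was thus above the negative controls in Wild type ICH, its lowest group, with 77, 77 and 53 counts.

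Hpgds was highest in Adrb3-/- sham and low elsewhere. Its value was 126.24, 132.13 and 179.95 in Adrb3-/- sham, from 85, 104 and 156 counts. In Wild type it was 64.52 and 41 after sham, and 57.23, 35.71 and 58.34 after ICH. In Adrb3-/- ICH it was 47.97 and 43.03 in replicates 1 and 3, and under 20 counts in replicate 2, which allows a level of up to 103. Every Adrb3-/- sham library lay above every other library, also with that upper limit in place of the listed 20. The means were 146 ± 29.5 (SD, n = 3) in Adrb3-/- sham, 52.8 ± 16.6 (SD, n = 2) in Wild type sham and 50.4 ± 12.8 (SD, n = 3) in Wild type ICH. Adrb3-/- ICH averaged 37.0 ± 14.9 (SD, n = 3) with the listed 20 and 64.7 ± 33.4 with the limit in its place, so it has no settled place in the order below Adrb3-/- sham, where the groups overlapped.

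The count of Hpgds exceeded the negative control limit in 6 of 11 libraries: all 3 of Adrb3-/- sham, Wild type sham replicate 2 and Wild type ICH replicates 1 and 3. It did not in 4, which include both Adrb3-/- ICH libraries with a measured count, 25 and 20. In Adrb3-/- ICH replicate 2 the limit was 16.5 counts, and a count known only to be under 20 may lie on either side of it. Hpgds passed the filter on low values, with a mean of 73.3 over the 11 libraries, through its level in Adrb3-/- sham. Over the 10 libraries with a measured count, the highest was 5.04-fold above the lowest.

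Alox5ap was well above background in every library, with 224 to 1073 counts. Its value was 916.61 and 1065.89 in Wild type sham and 747.65, 795.95 and 696.88 in Wild type ICH. In Adrb3-/- sham it was 947.56, 918.59 and 543.3, and in Adrb3-/- ICH it was 2058.7, 1156.27 and 978.86. The 3 Adrb3-/- ICH libraries lay above all Adrb3-/- sham and all Wild type ICH libraries, and 1 of them, replicate 1, was far above the rest. The means were 1398 ± 579 (SD, n = 3) in Adrb3-/- ICH, 991 ± 106 (SD, n = 2) in Wild type sham, 803 ± 226 (SD, n = 3) in Adrb3-/- sham and 747 ± 49.5 (SD, n = 3) in Wild type ICH. Each step between neighbours in this order was smaller than the larger SD of the pair. The lowest Adrb3-/- ICH library and the highest Adrb3-/- sham library differed by less than counting error, with 95% exact Poisson intervals of 891 to 1073 and 875 to 1024. The highest value over the 11 libraries was 3.79-fold above the lowest, and the SD of 0.49 exceeded that of 52.7% of genes.

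**Figure D1:**
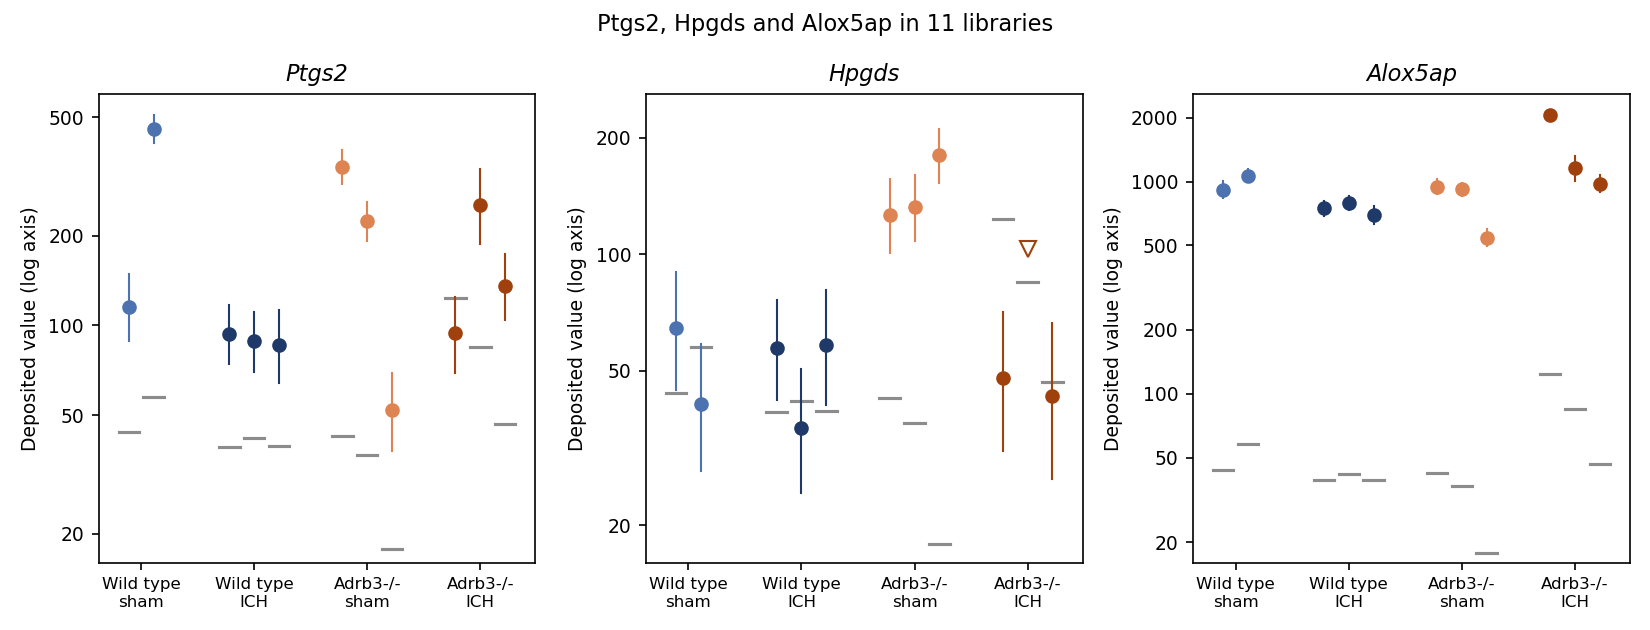
Deposited values (log axis) of Ptgs2, Hpgds and Alox5ap in 11 libraries by group, each point a library; vertical lines are 95% exact Poisson intervals, grey bars the mean plus 2 SD of the library's negative control probes on the same scale, and the open triangle the upper limit of 103 for a count under 20. Hpgds stands apart in Adrb3-/- sham at 126.24 to 179.95, Ptgs2 is tight in Wild type ICH at 85.89 to 93.76, and Alox5ap reaches 2058.7 in 1 Adrb3-/- ICH library.

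The comparison of ICH with sham was fitted in each genotype with limma on log2(value + 1). The added 1 makes a change of a low gene smaller, while a listed 20 that stands below what a library could measure makes it larger. In Wild type mice Ptgs2 was lower after ICH by a log2 change of -1.36 (SE 0.78), Alox5ap by -0.41 (SE 0.36), and Hpgds differed by -0.06 (SE 0.41). The Ptgs2 and Alox5ap groups did not overlap, beside 17.2% of the 674 genes that did not overlap in this comparison, in which the median gene changed by -0.11 and 0 genes (0%) passed an adjusted p under 0.05, or an unadjusted p under 0.05, in limma. The Alox5ap groups overlapped once each library was centred on its median, and the Ptgs2 groups overlapped after quantile normalization. As deposited, the 95% exact Poisson intervals of the nearest sham and ICH libraries overlapped for both genes. They were 88.5 to 149 and 74.0 to 117 for Ptgs2, and 837 to 1002 and 738 to 858 for Alox5ap. The size of the Ptgs2 difference hung on which sham library was kept: it was -0.37 without Wild type sham replicate 3 and -2.34 without Wild type sham replicate 2. Beside Alox5ap, 7 of 11 neutrophil markers had a negative change, with a median of -0.43, and 0 of 11 passed the test. Their summed level was 461670 to 466472 in Wild type sham and 263362 to 336472 in Wild type ICH, with no overlap. S100a8 and S100a9 made up most of this sum, with means of 190840 and 211638 in Wild type sham, while 4 of 11 markers had a positive change. The part of the neutrophil markers in the Alox5ap difference was not tested. The 22 inducible inflammatory genes kept for the fit, which include Cxcl2, Nfkbiz and Il1b, had a negative change in 18 of 22, with a median of -0.54, and 0 of 22 passed the test.

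In Adrb3-/- mice Hpgds was lower and Alox5ap higher after ICH than after sham. The log2 change of Hpgds after ICH was -2.03 (SE 0.36), with groups that did not overlap, while 8.46% of genes did not overlap. The change was -1.26 with the value 20 replaced by the upper limit in Adrb3-/- ICH replicate 2, and -1.65 without that library, since the listed 20 lies below any level that library could measure. Alox5ap was higher after ICH by 0.77 (SE 0.32), also with groups that did not overlap, and by 0.45 without Adrb3-/- ICH replicate 1, the library with the low positive control. Ptgs2 differed by -0.10 (SE 0.70), its groups overlapped, and its sign depended on single libraries, with -0.90 without Adrb3-/- sham replicate 3 and 0.45 without Adrb3-/- sham replicate 1.

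In that comparison 7 of 674 genes (1.04%) passed an adjusted p under 0.05 in limma, all lower after ICH. They included 6 macrophage markers, Adgre1, Apoe, Cd163, Mertk, Mrc1 and Vcam1. The number of calls depended on single libraries: it was 0 without any 1 of the 3 Wild type ICH libraries or of Adrb3-/- sham replicates 2 and 3, 2 without Adrb3-/- sham replicate 1, 3, 23 and 50 without Adrb3-/- ICH replicates 2, 1 and 3, and 0 with a replicate block or with array weights. No test result is given for Ptgs2, Hpgds or Alox5ap, since their contrasts were known when they were picked. Of the 14 macrophage markers 13 had a negative change, with a median of -1.93, against a median of -0.16 over all genes. The summed macrophage level was 8879 to 16478 in Adrb3-/- sham and 1850 to 3496 in Adrb3-/- ICH, with 0 of 14 markers under 20 counts throughout a group. The part of these markers in the Hpgds difference was not tested.

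Beside Alox5ap, 10 of 11 neutrophil markers had a positive change after ICH in Adrb3-/- mice, with a median of 0.81, and 0 of 11 passed the test. Their summed level was 95091 to 374745 in Adrb3-/- sham and 288991 to 550763 in Adrb3-/- ICH, and the groups overlapped. No neutrophil marker was under 20 counts throughout a group. The part of these markers in the Alox5ap difference was not tested.

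The genotypes were compared within each surgery, and these contrasts share their groups with the ones above. After sham, Hpgds was higher in Adrb3-/- than in Wild type by 1.47 (SE 0.41), with groups that did not overlap, as was so for 26.7% of genes. The difference was 0.42 with the failed library added and 0.48 with 1 common floor of 103 for all libraries. Ptgs2 differed by -0.54 (SE 0.78) and Alox5ap by -0.34 (SE 0.36), and the groups of each overlapped. The sign for Ptgs2 turned to 0.45 without Wild type sham replicate 3 and to 0.26 without Adrb3-/- sham replicate 3. In the same comparison 0 of 674 genes (0%) passed an adjusted p under 0.05, and 32 an unadjusted p under 0.05, in limma. The macrophage markers were higher in 14 of 14, with a median change of 1.21, and the neutrophil markers lower in 11 of 11, with a median of -0.95, none past the test; the part of these markers in the Hpgds difference was not tested.

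After ICH, Alox5ap was higher in Adrb3-/- than in Wild type by 0.83 (SE 0.32) and Ptgs2 by 0.72 (SE 0.70). The groups of each did not overlap, while 9.79% of genes did not overlap. The Ptgs2 groups were parted by less than counting error, at 94.01 in Adrb3-/- ICH replicate 1 and 93.76 in Wild type ICH replicate 1. Their 95% exact Poisson intervals were 69.6 to 124 and 74.0 to 117. The 49 counts in Adrb3-/- ICH replicate 1 were not above its negative control limit of 64.4. The Alox5ap difference was 0.51 without Adrb3-/- ICH replicate 1, and the Ptgs2 difference was 0.33 without Adrb3-/- ICH replicate 2, whose 49 counts weigh as much as 252.93. Hpgds differed by -0.50 (SE 0.36) with the listed 20 and by 0.28 with the upper limit in its place, so its direction is not settled. The macrophage markers were lower in Adrb3-/- in 13 of 14, with a median change of -0.85 and sums of 1850 to 3496 against 4555 to 5714 in Wild type. The neutrophil markers were higher in 10 of 11, with a median of 0.33 and sums of 288991 to 550763 against 263362 to 336472. None of these markers passed the test, and their part in the differences was not tested. By limma 0 of 674 genes (0%) passed an adjusted p under 0.05, and 72 an unadjusted p under 0.05.

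The change after ICH in Adrb3-/- minus that in Wild type was 1.26 (SE 1.04) for Ptgs2, -1.96 (SE 0.55) for Hpgds and 1.17 (SE 0.48) for Alox5ap on the log2 scale. For Ptgs2 this difference was 0.27 without Wild type sham replicate 3 and 2.24 without Wild type sham replicate 2. For Hpgds it was -1.58 without Adrb3-/- ICH replicate 2 and -0.48 with 1 common floor. For Alox5ap it was 0.85 without Adrb3-/- ICH replicate 1. For Alox5ap the change had opposite signs in the 2 genotypes. In limma 0 of 674 genes (0%) passed an adjusted p under 0.05 for this difference, and 29 an unadjusted p under 0.05.

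**Figure D2:**
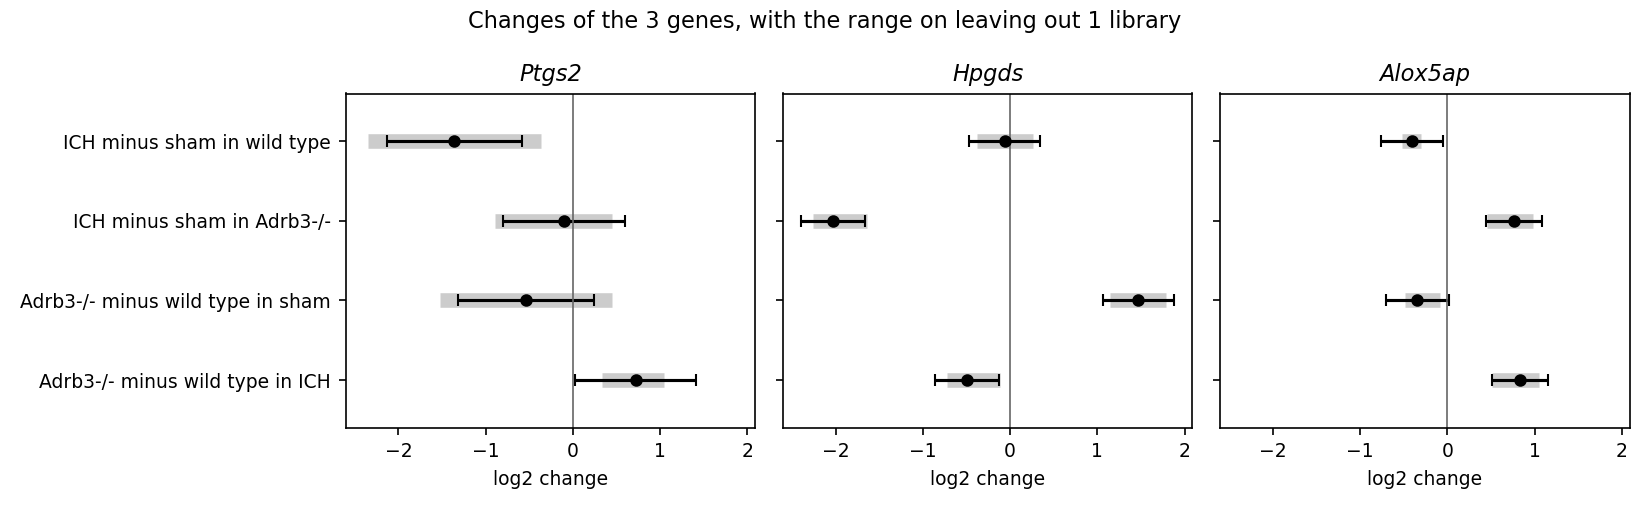
Log2 change of Ptgs2, Hpgds and Alox5ap in 4 contrasts of genotype and surgery, with bars of 1 SE either way and a grey band for the range over fits that each leave out 1 library. The Hpgds points for ICH in Adrb3-/- mice and for genotype after sham lie at -2.03 and 1.47, and the Ptgs2 band for ICH in Wild type runs from -2.34 to -0.37.

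Across libraries the 3 genes did not follow each other. On log2 values, Pearson's r was -0.03 between Ptgs2 and Hpgds over 10 libraries, 0.36 between Ptgs2 and Alox5ap over 11, and -0.40 between Hpgds and Alox5ap over 10. These coefficients, and those that follow, describe libraries that share groups, depth and scaling, and carry no p.

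The level of Ptgs2 ran most closely with Cxcl2 (r = 0.95 over 11 libraries), then with Nfkbiz, an inducible NF-kB regulator (0.93), Tlr2, a receptor of bacterial lipoproteins (0.92), Ccrl2, a chemerin-binding receptor (0.89), and Dusp1, a phosphatase that acts on MAP kinases (0.88), out of 673 genes compared. Cxcl2 was high in the libraries in which Ptgs2 was high: it was 695.56 in Wild type sham replicate 3, 406.95 in Adrb3-/- sham replicate 1 and 366.49 in Adrb3-/- ICH replicate 2. It was 46.14 in Adrb3-/- sham replicate 3, the lowest library for Ptgs2 as well. Without the 2 libraries whose Ptgs2 lay farthest from the median, r was 0.89 for Cxcl2 and between 0.75 and 0.88 for the other 4. All 22 inducible genes kept for the fit had a positive r with Ptgs2, with a median of 0.75, while the median over the 673 genes was 0.09. The summed level of the 26 inducible genes on the panel was 6836 to 21927 in Wild type sham, 8663 to 9318 in Wild type ICH, 5124 to 13904 in Adrb3-/- sham and 5258 to 13722 in Adrb3-/- ICH.

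The level of Hpgds ran most closely with Apoe, the apolipoprotein E gene (r = 0.95 over 10 libraries), then with Serpinb6a, a serine protease inhibitor (0.95), Mrc1, the macrophage mannose receptor (0.94), Lipa, the lysosomal acid lipase (0.93), and Ctsd, the lysosomal protease cathepsin D (0.92). Apoe was 1541.64, 1818.12 and 2798.42 in Adrb3-/- sham and 527.08 to 888.14 in the other 8 libraries, so the same group stood apart for both genes. Without the 2 libraries farthest from the median of Hpgds, both from Adrb3-/- sham, r was 0.83 to 0.89 for the 5 genes over 8 libraries. Adrb3-/- sham replicate 1 was still among the 8, with their highest Hpgds (126.24) and Apoe (1541.64). The 4 libraries in which Hpgds was not above the negative control limit were among them too. All 14 macrophage markers had a positive r with Hpgds, with a median of 0.81 against 0.05 over all genes. The 11 neutrophil markers all had a negative r, with a median of -0.60. Against Wild type sham, the macrophage markers were higher in Adrb3-/- sham in 14 of 14, and the neutrophil markers lower in 11 of 11. The values for these lists were not worked out without the Adrb3-/- sham libraries.

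Mast cells and basophils, another known source of Hpgds, were covered by 9 markers, of which 6 were kept for the fit. Their summed level was 1247 to 1492 in Wild type sham, 1020 to 1283 in Wild type ICH, 1174 to 1330 in Adrb3-/- sham and 737 to 1765 in Adrb3-/- ICH, and the groups overlapped. Of these markers, Kit and Gata2, with means of 202 and 459 in Adrb3-/- sham, stand in the stem and progenitor list as well. The sum is thus not of mast cells and basophils alone. Of the 6 markers kept for the fit, 3 had a positive r with Hpgds, with r from -0.75 to 0.31 and a median of 0.07.

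The level of Alox5ap ran closely with S100a11, a calcium-binding protein gene (r = 0.95 over 11 libraries), then with Aoah, which deacylates lipopolysaccharide (0.92 over 10), Rab3d, a GTPase of secretory vesicles (0.89), and Adam8, a cell-surface metalloprotease (0.89). These values leaned on Adrb3-/- ICH replicate 1 and Adrb3-/- sham replicate 3, the highest and the lowest library. Without them r stayed at 0.86 for S100a11 and was 0.63 for Rab3d, 0.52 for Aoah and 0.14 for Adam8. S100a11 was 9744.78 in the first of these libraries and 2626.55 in the second, against 3930.08 to 6017.73 in the other 9. Of 11 neutrophil markers 10 had a positive r with Alox5ap, with a median of 0.76 against -0.06 over all genes. Of 14 macrophage markers 1 had a positive r, with a median of -0.52. Adrb3-/- ICH replicate 1 and Adrb3-/- sham replicate 3 were also the highest and the lowest for the neutrophil sum, at 550763 and 95091. The values for these marker lists were not worked out without them.

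**Figure D3:**
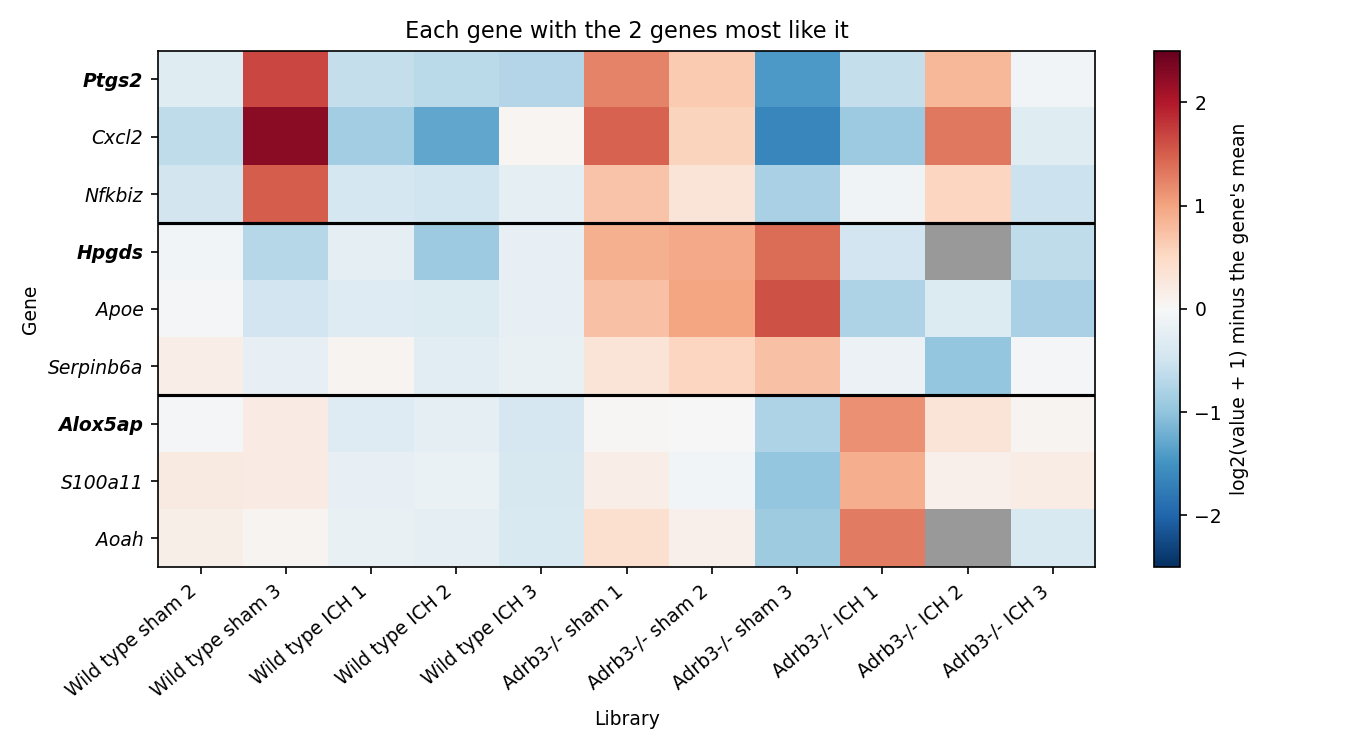
Colour gives log2(value + 1) minus the gene's mean over the libraries with at least 20 counts, for Ptgs2, Hpgds and Alox5ap and the 2 genes most like each (vertical axis) in 11 libraries (horizontal axis); grey cells are counts under 20. The Ptgs2 block is high in Wild type sham replicate 3 and low in Adrb3-/- sham replicate 3, the Hpgds block is high in Adrb3-/- sham, and the Alox5ap block is high in Adrb3-/- ICH replicate 1.

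Of 67 other genes listed for eicosanoid synthesis, breakdown and reception, 19 were on the panel, and 18 had a mean above background; Cysltr1, a cysteinyl leukotriene receptor, did not. None of the 18 passed an adjusted p under 0.05 in any of the 5 limma contrasts, where 0%, 1.04%, 0%, 0% and 0% of all genes passed. At an unadjusted p under 0.05 there were 0 of 18 for ICH in Wild type, 4 for ICH in Adrb3-/-, 1 for genotype after sham, 2 for genotype after ICH and 2 for the difference of the changes, beside 0, 73, 32, 72 and 29 of all 674 genes. Their median log2 changes were -0.16, 0.18, -0.32, 0.01 and 0.12 in that order, beside -0.11, -0.16, -0.10, -0.14 and -0.06 over all genes.

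Among the prostaglandin enzymes, Ptgs1, the constitutive cyclooxygenase, varied little: it was 174.6 to 371.69 over the 11 libraries, a 2.13-fold span beside the 8.82-fold span of Ptgs2. Hpgd, the dehydrogenase that inactivates prostaglandins and bears a symbol close to that of Hpgds, was 490.12, 451.04 and 749.78 in Adrb3-/- sham. It was 417.5 and 225.48 in Wild type sham, 414.01, 323.68 and 314.41 in Wild type ICH, and 435.53, 196.15 and 120.47 in Adrb3-/- ICH. As with Hpgds, its 3 highest libraries were those of Adrb3-/- sham. Its change after ICH in Adrb3-/- mice was -1.33 (SE 0.44), which did not pass the test (limma adjusted p = 0.300), and it passed without Adrb3-/- ICH replicate 1 (change -1.83, limma adjusted p = 0.0376).

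In the leukotriene branch, Alox5, the 5-lipoxygenase that Alox5ap serves, was 476.33 and 394.92 in Wild type sham and 326.34, 299.49 and 306.3 in Wild type ICH. It was 372.79, 292.22 and 141.88 in Adrb3-/- sham and 544.89, 263.26 and 290.43 in Adrb3-/- ICH. Its highest and lowest libraries were those of Alox5ap, Adrb3-/- ICH replicate 1 and Adrb3-/- sham replicate 3, but unlike Alox5ap its Adrb3-/- groups overlapped, and the change after ICH was 0.47 (SE 0.38; limma adjusted p = 0.673). Lta4h, which makes leukotriene B4, had the same highest and lowest libraries, at 2169.98 and 816.69, with a change of 0.47 (SE 0.32; limma adjusted p = 0.574). Alox15, the 12/15-lipoxygenase, was low, at most 98.68, and under 20 counts in 2 of 3 Adrb3-/- ICH libraries.

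The receptors and lipid-responsive genes showed no change past the test. Pparg, a nuclear receptor that binds prostaglandin D2 metabolites, had a change of -1.25 after ICH in Adrb3-/- mice (limma adjusted p = 0.324), with 1 of 3 ICH libraries under 20 counts. Fpr2, a receptor of lipoxin A4 and annexin A1, had a change of 0.98 in that comparison (limma adjusted p = 0.430). Alox15, Ltb4r2, a low-affinity leukotriene B4 receptor, and Pparg passed, all lower, when Adrb3-/- ICH replicate 3 was left out, which leaves in that group the 2 libraries with the most genes under 20 counts. Groups did not overlap for 6 of 18 genes in Wild type mice, all lower after ICH, beside 17.2% of all genes, and for 1 of 18, Hpgd, in Adrb3-/- mice, beside 8.46%. For genotype after sham it was 7 of 18, with Hpgd higher and 6 lower, beside 26.7%, and for genotype after ICH 2 of 18, Anxa1 and S100a9, both higher in Adrb3-/-, beside 9.79%. S100a8 and S100a9, which carry arachidonic acid, stand in the neutrophil marker list as well.

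**Figure D4:**
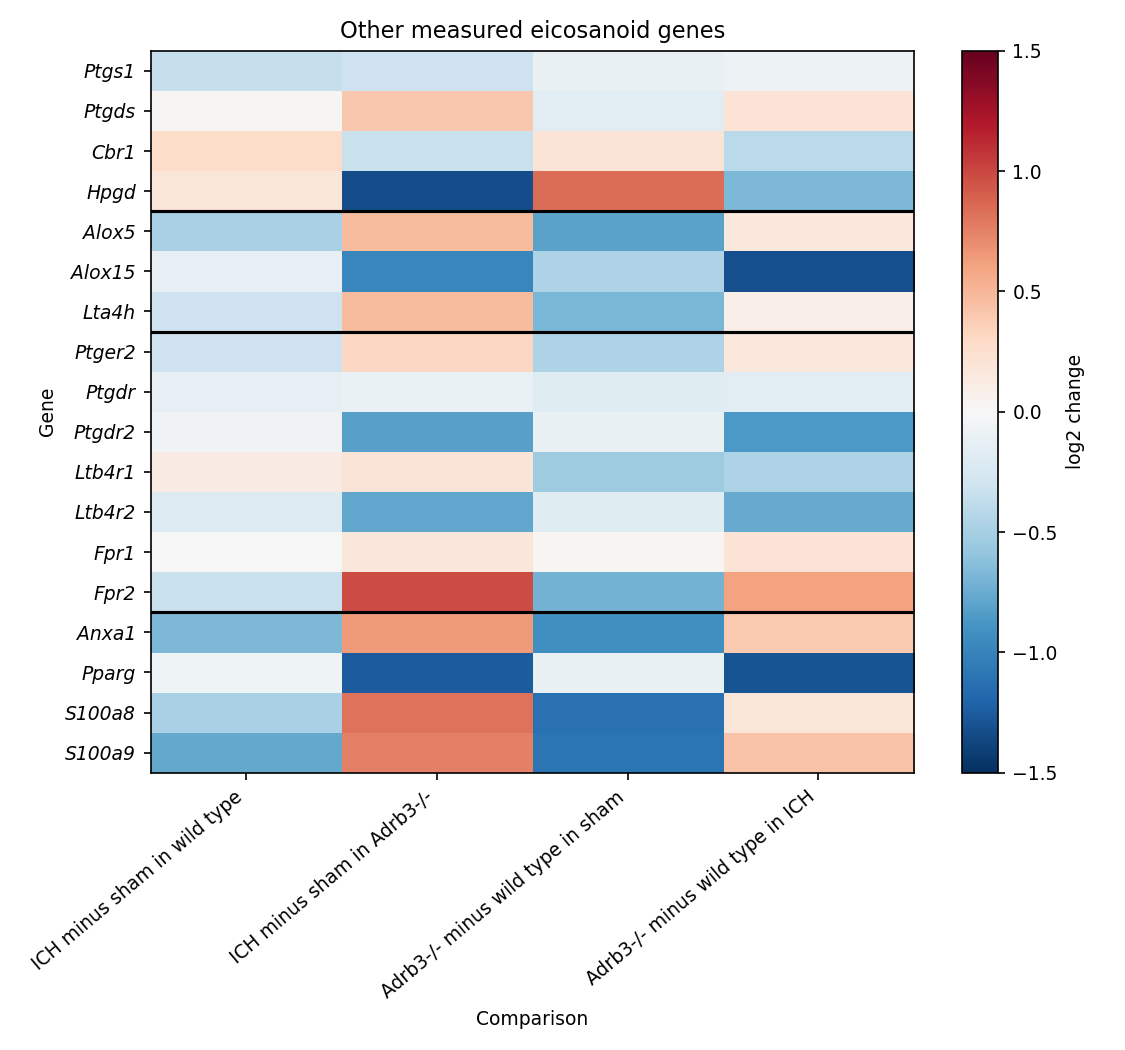
Colour gives the log2 change of the 18 other eicosanoid genes kept for the fit (vertical axis) in 4 contrasts (horizontal axis), with prostaglandin enzymes, lipoxygenase and leukotriene enzymes, receptors and others set apart by lines. None passed an adjusted p under 0.05, and Hpgd had the lowest change after ICH in Adrb3-/- mice, -1.33.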

How the data were processed

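The deposited signal values form 1 table of 754 genes, 8 negative and 6 positive control probes in 12 libraries. The sources used here name no instrument, panel or scaling method. From the values, each signal that the authors deposited is a whole count times 1 factor per library (whole within 0.0045 up to 1000 counts), counts under 20 are given as 20 unscaled, and control probes are unscaled counts. Counts under 20 cannot be recovered, so no count test was run. Symbols matched the RefSeq GRCm38.p6 table for 744 genes, 9 by older names.

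Wild type sham replicate 1 was left out of the fit. Genes whose mean over 11 libraries exceeded 52.2, the mean over libraries of each one's negative control mean plus 2 SD, were kept (674; 80 removed). limma 3.58.1 (R 4.3.3) fitted log2(value + 1) to 4 group means with eBayes and 7 residual degrees of freedom, and p-values were adjusted over the 674 genes by Benjamini-Hochberg. Each p-value sets a group difference against the spread between these samples. The labels do not say that replicates are separate mice, so that spread may not be one between mice. Poisson intervals (95%, exact) cover counting error only. The step finder recovered 50 of 50 simulated factors. Named genes were the 3 genes, other eicosanoid genes on the panel, the 5 genes most correlated with each (at least 20 counts in at least 8 libraries) and inducible genes; 1 gene correlated with Alox5ap is not reported here. Members, lists and tests were chosen with earlier results of these data known.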

Additional observations from a re-analysis of the deposited data

Results flagged for a closer look

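Wild type sham replicate 1, the failed reaction kept out of every comparison, still held 72 counts of Ptgs2 and 45 counts of Alox5ap, both above the mean plus 2 SD of its negative control probes, 44.6 counts. Its Hpgds count of 30 was not. On the deposited scale the 3 values were 1116.77, 697.98 and 465.32, each count being multiplied by 15.5.

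Set against the sham libraries of the same genotype, Alox5ap was lower in every Wild type ICH library and higher in every Adrb3-/- ICH library. The changes differed by 1.17 on the log2 scale. Groups did not overlap for 17.2% and 8.46% of genes in these comparisons. The Wild type groups overlapped once each library was centred on its median. As deposited, the 95% exact Poisson intervals of their nearest libraries overlapped, at 837 to 1002 and 738 to 858. The nearest Adrb3-/- libraries, at 978.86 and 947.56, differed by less than counting error. The failed library, at 697.98, was left out, and it lay below Wild type ICH replicates 1 and 2. No test of the difference between the changes is given, because the gene was picked with the contrasts known.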

How the results depend on the processing

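Of 570 values under 23 alternatives, 42 moved by more than the SD between replicates or, for counts, by over 1.5 times. Changes of the 3 genes, which carry no call, differed in sign from the reported value in 4 of 23 alternatives for Hpgds after ICH in Wild type, 5 for Ptgs2 after ICH in Adrb3-/-, 2 for Ptgs2 between genotypes after sham and 3 for Hpgds between genotypes after ICH. Both counts for Hpgds include the setting with 1 floor, where the change was 0 within rounding and not reversed. Leaving out each library gave 0 to 1 genes called for ICH in Wild type, 0 to 50 for ICH in Adrb3-/- (7 with all 11), 0 to 1 for genotype after sham, 0 to 49 for genotype after ICH and 0 to 1 for the difference of the changes. Other eicosanoid genes called ranged from 0 to 3 for ICH in Adrb3-/- and for genotype after ICH. The counts of 50 and 49 came without Adrb3-/- ICH replicate 3, and 23 and 5 without replicate 1. For ICH in Adrb3-/- mice, 0 genes were called with all 12 libraries, with only the 2 groups compared, with 1 floor for all libraries and with array weights, 1 with median centring, 2 with no filter, 12 with values at 20 missing or with a robust trend, and 13 with a pseudocount of 20. With no filter 2 genes were called for genotype after ICH. The causes were not tested. The change of Hpgds after ICH in Adrb3-/- was -1.26 with each listed 20 raised to what 20 counts are worth in its library, -0.48 with 1 floor and -1.34 after quantile normalization. For genotype after ICH these were 0.28, 0 and 0.49, for genotype after sham 0.42 with 12 libraries and 0.48 with 1 floor, and for ICH in Wild type -1.11 with 12 libraries. Whether replicate numbers pair the libraries cannot be settled with groups of 2 or 3. For deviations from group means, 15 same-number pairs had r from -0.42 to 0.15, median -0.13. The 30 pairs with different numbers had r from -0.31 to 0.45, median 0.09. With the replicate block, 0 genes were called for ICH in Adrb3-/-. Hpgds was above the negative control limit in 6 of 11 libraries, not above it in 4 and undetermined in 1.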
